A study of Mus musculus with 4 samples.

Results

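The nuclear genes for mitochondrial ribosomal proteins were followed in late 2C mouse embryos, with and without Mdivi-1. They were chosen by name, as all rows of the deposited gene table whose symbol starts with Mrpl or Mrps and a digit, without use of any measured value. This gave 77 of 26022 genes, of which 50 code for the large subunit, 26 for the small subunit and 1 (*Mrps36*) for a protein that carries a ribosomal name but belongs to the oxoglutarate dehydrogenase complex. All 77 lie on autosomes, spread over 17 chromosomes, and all were found with the same symbol in the GENCODE M21 annotation of GRCm38.

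The Mdivi-1 group consisted of embryos of the outbred ICR strain cultured in 200 μM Mdivi-1, a small molecule used to inhibit the mitochondrial fission protein DRP1. The control group consisted of ICR embryos cultured without it, and both groups came from females of 7 to 8 weeks that had been given hormones to ovulate. Embryos were cultured for 16 h from the late zygote stage, and 8 to 10 embryos were taken for each group. There were 2 libraries a group, made by Smart-Seq2, which copies polyadenylated RNA of a few cells along its full length and keeps no strand. Whether the 2 libraries within a group stem from different litters is not said in the sources, so the p-values measure only the spread between these libraries, which may be technical. No gene was deleted in these embryos, and an inhibitor also reaches proteins other than its named target.

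Mitochondria carry ribosomes of their own, which make the few proteins that the mitochondrial genome still encodes, all of them core parts of the respiratory chain and ATP synthase. The ribosomal RNAs come from mitochondrial DNA, whereas the ribosomal proteins come from nuclear genes, are made in the cytosol and are imported. Part of these proteins have a counterpart in bacterial ribosomes, and part are known only from mitochondria. In the 2C embryo the mitochondria are inherited from the oocyte and mitochondrial DNA is hardly copied, while the embryonic genome has its main wave of activation.

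The raw counts summed to 17712075 and 18500928 in the Mdivi-1 libraries and to 20077326 and 18279626 in the control libraries. Each library had reads for 14793 to 16311 genes. Levels are given as CPM, the count scaled to a library size normalized by TMM. Log2 CPM correlated across genes at a Pearson's r of 0.870 within the Mdivi-1 group, 0.863 within the control group and 0.802 to 0.855 between groups. The embryo label was checked on marker genes. The 10 markers of the 2C stage summed to 3937 and 4606 CPM in the Mdivi-1 libraries and 1296 to 2572 CPM in the controls, and the 10 oocyte markers to 3583 and 4605 CPM in the Mdivi-1 libraries and 1553 to 3162 CPM in the controls. All 10 of the 2C markers had a positive fold change, and 8 of the 10 oocyte markers. Over all genes tested, 7317 of 14259 had one. The lists were chosen with earlier results of these data known, so these counts are no independent test. Most of the oocyte sum came from *Oosp1*, with 2401 and 3198 CPM in the Mdivi-1 libraries and 956 and 2368 CPM in the controls. The 12 markers of cumulus and granulosa cells summed to 27.3 to 28.3 CPM in the Mdivi-1 libraries and 22.3 to 38.6 CPM in the controls, with *Amh*, *Has2*, *Inha* and *Ptx3* at 0 in all 4. Of the 5 sperm markers measured, which summed to 2.76 to 6.07 CPM in the Mdivi-1 libraries and 1.51 to 2.59 CPM in the controls, *Tnp2* was at 0. The 8 markers of the first lineages summed to 36.4 CPM in both Mdivi-1 libraries and 15.8 to 20.3 CPM in the controls, with *Cdx2* at 0. *Dnm1l*, which encodes DRP1, had 93.7 and 91.3 CPM in the Mdivi-1 libraries, against 37.9 and 33.1 CPM in the controls, a log2 fold change of 1.38 ± 0.31 (SE), with an adjusted p of 0.153 by edgeR and 0.00971 by DESeq2. The part of these differences in maternal and 2C transcripts in the ribosomal protein values was not tested.

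Mitochondrial ribosomal protein transcripts were measured at widely different levels. Per kb of exon, *Mrpl34* had the highest mean, with 275 CPM per kb, followed by *Mrpl22*, *Mrpl40*, *Mrpl41* and *Mrps33* with 165, 139, 136 and 87.4 CPM per kb. The median over the 77 genes was 10.8 CPM per kb, and the lowest, *Mrps5*, had 0.107 CPM per kb. *Mrps5* and *Mrpl19* did not pass the filter on low counts and were not tested. *Mrps5* had 0.0537 and 2.29 CPM in the Mdivi-1 libraries and 0 and 0.459 CPM in the controls. *Mrpl19* had 0.161 and 0.0521 CPM in the Mdivi-1 libraries and 2.73 and 0.0656 CPM in the controls, so that in neither gene were the groups apart.

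Promoters of nuclear genes for mitochondrial proteins are known to hold sites for ETS family factors such as GABP, for NRF1 and for YY1. The RefSeq windows on GRCm38.p6, from 250 bases before to 50 bases after the start, were searched on both strands for the cores CCGGAAG (ETS), GCGCANGCG (NRF1) and AAGATGG (YY1), of which the first and the last can overlap by AAG. The stretches of 120 bases that end at the base before the RefSeq start are shown for 5 genes chosen as examples. The cores on either strand are in capitals. The examples are *Mrpl34*, which had the highest level, and *Mrpl52* and *Mrpl22*, which carry 2 different cores each. *Mrpl52* and *Mrpl22* were lower in Mdivi-1 embryos at an unadjusted p under 0.05 in edgeR's test. The others are *Mrps21*, which was higher at that threshold, and *Mrpl20*, which had the smallest p and carries no core. None of *Mrpl52*, *Mrpl22* and *Mrps21* was called by DESeq2 at an adjusted p under 0.05. *Mrpl42* and *Mrpl21*, which were also lower, hold no core in this stretch and are not shown.
Mrpl34, chr8:71464806-71464925, plus strand: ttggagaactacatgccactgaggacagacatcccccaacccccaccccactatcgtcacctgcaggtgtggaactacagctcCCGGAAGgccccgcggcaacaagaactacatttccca
Mrpl52, chr14:54426789-54426908, plus strand: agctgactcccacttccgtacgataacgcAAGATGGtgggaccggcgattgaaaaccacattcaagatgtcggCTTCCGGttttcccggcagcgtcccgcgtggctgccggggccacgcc
Mrpl22, chr11:58171544-58171663, plus strand: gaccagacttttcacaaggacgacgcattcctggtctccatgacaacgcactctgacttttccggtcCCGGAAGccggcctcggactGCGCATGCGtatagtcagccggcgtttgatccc
Mrps21, chr3:95871515-95871634, minus strand: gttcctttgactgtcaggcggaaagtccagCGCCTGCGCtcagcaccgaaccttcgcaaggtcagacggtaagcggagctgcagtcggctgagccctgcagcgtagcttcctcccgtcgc
Mrpl20, chr4:155802758-155802877, plus strand: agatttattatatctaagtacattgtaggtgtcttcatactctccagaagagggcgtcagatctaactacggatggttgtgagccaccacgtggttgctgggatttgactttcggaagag

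The ETS core stood in the window of 26 of the 68 genes that have one (38.2%), against 18.44% of the 10659 protein-coding genes tested with a window and 9.93% of all 27025 genes with one. For the NRF1 core the values were 15 of 68 (22.1%) against 14.19% and 7.03%, and for the YY1 core 13 of 68 (19.1%) against 8.2% and 7.28%. All 3 cores were thus more frequent than in the other promoters, and the ETS core showed the widest gap in percentage points. As a ratio to the protein-coding genes tested, the YY1 core showed a wider gap than the ETS core. These differences were not tested. A core is a match of letters and not a site shown to be bound. The genes with an entry missing were *Mrpl4*, *Mrpl13*, *Mrpl15*, *Mrpl19*, *Mrpl38*, *Mrpl54*, *Mrps28*, *Mrps34* and *Mrps35*.

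A second shared feature was position. Of the 77 genes, 32 (41.56%) had a protein-coding neighbour on the other strand whose start lay within 1000 bp, head to head, against 1951 of 13258 protein-coding genes tested (14.72%). Among them are *Mrps11* and *Mrpl46*, a small-subunit and a large-subunit gene that start beside each other on chromosome 7. Exons of 32 of the genes overlap an exon of another gene, and since reads carry no strand, a read that lies on both genes was counted for neither in an unstranded count by STAR, which lowers the counts of both. For 6 genes (*Mrpl23*, *Mrpl27*, *Mrpl48*, *Mrpl51*, *Mrps33* and *Mrps36*) a pseudogene bears the same name, and reads that map to both were not counted.

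**Figure D1:**
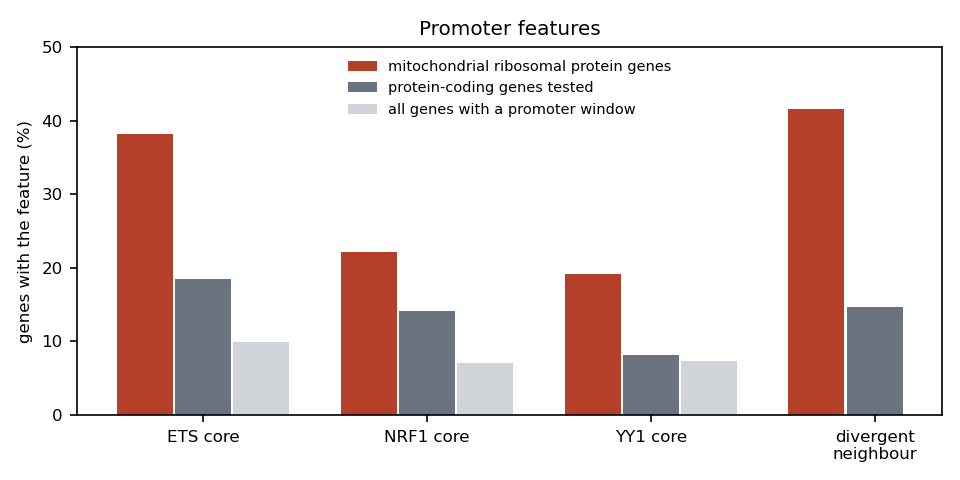
Share of genes (%, vertical axis) with an ETS, NRF1 or YY1 core in the promoter window, or with a divergent protein-coding neighbour, for mitochondrial ribosomal protein genes (red), protein-coding genes tested (grey) and all genes with a window (light grey; not computed for neighbours). The ETS core stood in 38.2% of the mitochondrial ribosomal protein genes, and 41.56% had a divergent neighbour.

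The comparison of Mdivi-1 with control embryos asked how transcripts for the nuclear part of the mitochondrial ribosome differed after culture with Mdivi-1. DRP1 activity was not measured in these libraries. Most of its transcripts were lower after Mdivi-1, and the lower values were spread over many genes. No single gene passed the adjusted threshold of the main test. The clearest differences were those of *Mrpl20*, *Mrpl42* and *Mrpl21*, all large-subunit genes and all lower, while *Mrpl48* stood out as higher. Since these are bulk libraries, fewer cells that hold a transcript and less of it per cell cannot be told apart.

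In summed level, the 77 genes had 3184 and 2696 CPM in the Mdivi-1 libraries and 3637 and 4847 CPM in the controls. Both Mdivi-1 libraries thus lay below both controls, with a ratio of the means of 0.693 (log2 ratio -0.53). The 50 large-subunit genes summed to 2210 and 1887 CPM in the Mdivi-1 libraries, against 2649 and 3557 CPM in the controls, a ratio of 0.660. The 26 small-subunit genes summed to 938.1 and 778.2 CPM in the Mdivi-1 libraries, against 945.4 and 1217 CPM in the controls, a ratio of 0.794. For the small subunit, Mdivi-1 replicate 1 and control replicate 1 were nearly equal. Control replicate 2 was the highest of the 4 libraries for 37 of the 75 genes tested, and Mdivi-1 replicate 2 the lowest for 31. Its excess depended on the scaling, as control replicate 2 had the lowest TMM factor (0.834). With library totals the 77 genes summed to 3349 and 2796 CPM in the Mdivi-1 libraries and 3980 and 4042 CPM in the controls. Mdivi-1 replicate 1 was the highest for 14 genes and the lowest for 26.

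**Figure D2:**
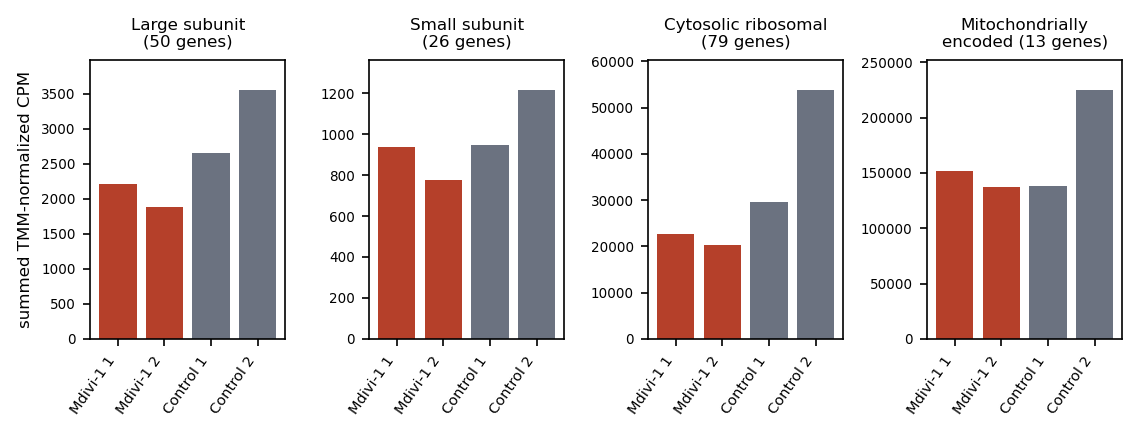
Summed TMM-normalized CPM (vertical axes, from 0) in each Mdivi-1 (red) and control (grey) library for large-subunit, small-subunit, cytosolic ribosomal and mitochondrially encoded protein genes. The large-subunit bars of both Mdivi-1 libraries (2210 and 1887 CPM) are below both controls, and control replicate 2 is the highest bar in each panel.

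Gene by gene, the median log2 fold change (Mdivi-1 over control) of the 75 genes tested was -0.63, with quartiles of -0.99 and 0.04, where all 14259 genes tested had a median of 0.03 and quartiles of -0.62 and 0.78. A negative value was found for 53 genes (70.7%), against a background of 48.7% of all genes tested. Both Mdivi-1 libraries lay below both controls for 43 genes (57.3%; background 23.9%), both lay above for 6 (8.0%; background 26.1%), and the groups overlapped for 26. At an unadjusted p under 0.05 in edgeR's quasi-likelihood test, 17 genes were lower (22.7%; background 7.64%) and 2 were higher (2.67%; background 8.27%). After adjustment by Benjamini-Hochberg over the whole table, this test called 0 of the 75 genes, as it called none of the 14259 (background 0.0%), and its smallest adjusted p was 0.149 among the 75 genes and 0.109 over all genes. DESeq2, which the study's methods name, called 9 lower (12.0%; background 2.75%) and 1 higher (1.33%; background 3.23%) at an adjusted p under 0.05. The count of 17 became 11 without Mdivi-1 replicate 2, and that of 2 became 4 when control replicate 2 was left out and 1 when Mdivi-1 replicate 1 was. DESeq2's 10 calls depended more on single libraries, with 3 left without control replicate 2 (*Mrpl20*, *Mrpl42* and *Mrpl48*), 1 without Mdivi-1 replicate 2 (*Mrpl20*) and 0 without Mdivi-1 replicate 1. Without control replicate 1 it called 11 genes, all lower, 8 of them among the 10. Scaling by library totals moved the median of all genes to 0.14, and the median of the 75 genes minus that of all genes was -0.66 under both scalings.

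**Figure D3:**
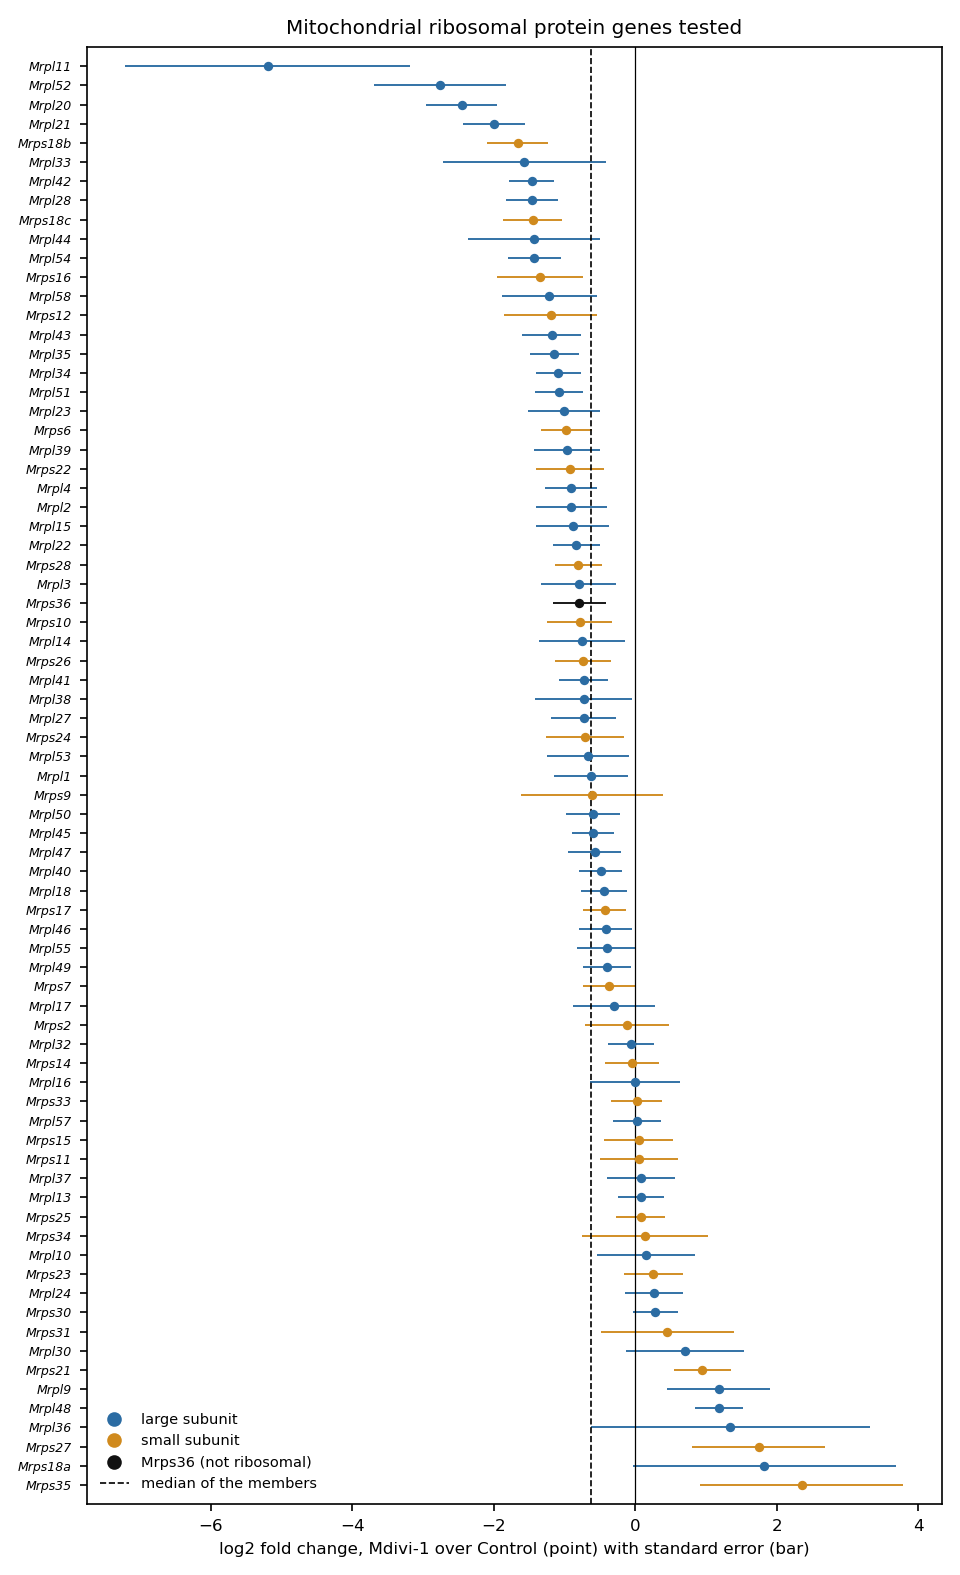
Log2 fold change of Mdivi-1 over control (horizontal axis, points) with its standard error (bars) for the 75 genes tested, sorted from lowest to highest, large subunit in blue, small subunit in orange and *Mrps36* in black. The broken line marks their median of -0.63, and 53 points lie below 0; the point of *Mrpl11* rests on 1 count in each Mdivi-1 library and is no measure of its size.

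The large subunit made up 49 of the 75 genes tested and held 37 of the 53 negative values and 13 of the 17 genes lower at an unadjusted p under 0.05, with 1 higher, shares near its size. Its median was -0.73. *Mrpl20*, the counterpart of a bacterial protein needed early in assembly of the large subunit (chr4:155802878-155809975), had 10.6 and 30.4 CPM in the Mdivi-1 libraries, against 104 and 122 CPM in the controls. The groups were well apart, and the log2 fold change was -2.46 ± 0.51 (SE), with an adjusted p of 0.149 by edgeR and 9.5e-05 by DESeq2. *Mrpl21*, which also has a bacterial counterpart (chr19:3282901-3292837), had 25.6 and 23.9 CPM in the Mdivi-1 libraries and 60.0 and 137 CPM in the controls. Its Mdivi-1 libraries nearly coincided, whereas its controls differed more than 2-fold, and the log2 fold change was -2.0 ± 0.44 (DESeq2 adjusted p = 0.00103). Its exons overlap those of *Ighmbp2* on the other strand, a gene with at most 1.46 CPM in any library.

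*Mrpl42*, whose protein is known only from mitochondria (chr10:95480805-95501940), had 87.8 and 83.3 CPM in the Mdivi-1 libraries and 193 and 279 CPM in the controls. Every control was above 2 times every Mdivi-1 library, and the log2 fold change was -1.46 ± 0.32 (DESeq2 adjusted p = 0.00112). *Mrpl28*, with a bacterial counterpart, had 16.9 and 22.2 CPM in the Mdivi-1 libraries and 47.2 and 59.8 CPM in the controls (log2 fold change -1.45 ± 0.37, DESeq2 adjusted p = 0.0264). *Mrpl54*, a mitochondria-specific protein, had 16.6 and 14.2 CPM in the Mdivi-1 libraries and 41.7 and 41.1 CPM in the controls (log2 fold change -1.43 ± 0.37, DESeq2 adjusted p = 0.0400). In both genes the groups were well apart.

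*Mrpl34*, the counterpart of a small basic bacterial protein (chr8:71464959-71465747), had 126 and 87.6 CPM in the Mdivi-1 libraries and 202 and 251 CPM in the controls. The most abundant transcript per kb was thus lower too, at a log2 fold change of -1.09 ± 0.32 (DESeq2 adjusted p = 0.0292). *Mrpl51*, known only from mitochondria, had 112 and 134 CPM in the Mdivi-1 libraries and 197 and 323 CPM in the controls (log2 fold change -1.08 ± 0.34, DESeq2 adjusted p = 0.0378). Its exons share 87 bp with *Mir3098* on the same strand. *Mrpl35* just missed DESeq2's threshold (adjusted p = 0.0506), with 46.3 and 52.6 CPM in the Mdivi-1 libraries and 83.4 and 136 CPM in the controls. The groups were apart in each of these genes.

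*Mrpl22*, which lines the tunnel through which the new protein leaves the ribosome, had 108 and 125 CPM in the Mdivi-1 libraries and 158 and 256 CPM in the controls (log2 fold change -0.83 ± 0.34, edgeR unadjusted p = 0.0389, adjusted p = 0.283). *Mrpl4*, which also lines it, had 26.7 and 19.6 CPM in the Mdivi-1 libraries and 47.0 and 39.5 CPM in the controls (log2 fold change -0.90 ± 0.37, edgeR unadjusted p = 0.0417, adjusted p = 0.288). Neither was called by DESeq2, with adjusted p of 0.148 and 0.256. *Mrpl3*, which reaches towards the peptidyl transferase centre, had a log2 fold change of -0.80 ± 0.53 (edgeR adjusted p = 0.517), with 10.1 and 7.04 CPM in the Mdivi-1 libraries and 13.4 and 16.5 CPM in the controls. *Mrpl58*, a peptidyl-tRNA hydrolase that frees stalled ribosomes, had 11.8 and 4.38 CPM in the Mdivi-1 libraries and 26.1 and 11.3 CPM in the controls, so that the groups overlapped. *Mrpl40* and *Mrpl41*, both mitochondria-specific and abundant, had log2 fold changes of -0.49 and -0.73, with both Mdivi-1 libraries below both controls and unadjusted p of 0.150 and 0.0666 in edgeR's test. The other large-subunit genes at an unadjusted p under 0.05 were *Mrpl43* (11.2 and 13.6 CPM in the Mdivi-1 libraries, 26.1 and 30.1 CPM in the controls), *Mrpl52* (1.45 and 0.990 CPM in the Mdivi-1 libraries, 5.23 and 11.3 CPM in the controls) and *Mrpl11*, named after their values were seen. *Mrpl11* had 1 read in each Mdivi-1 library and 74 and 15 reads in the controls, too few for a fold.

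*Mrpl48* went the other way. This mitochondria-specific gene (chr7:100545751-100608301) had 156 and 155 CPM in the Mdivi-1 libraries and 51.3 and 85.5 CPM in the controls. Its Mdivi-1 libraries were almost equal and both above the controls, with a log2 fold change of 1.18 ± 0.34, an adjusted p of 0.199 by edgeR and 0.0351 by DESeq2. Its exons share 708 bp with *Rab6a* on the other strand, which had 125 and 160 CPM in the Mdivi-1 libraries and 103 and 102 CPM in the controls, and a pseudogene bears its name; the part of either in the value was not tested. *Mrpl9*, a bacterial-type protein, had the same log2 fold change of 1.18, but from 211 and 37.3 CPM in the Mdivi-1 libraries and 35.4 and 74.3 CPM in the controls. That value rests on Mdivi-1 replicate 1, as its log2 fold change was -0.56 without that library.

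**Figure D4:**
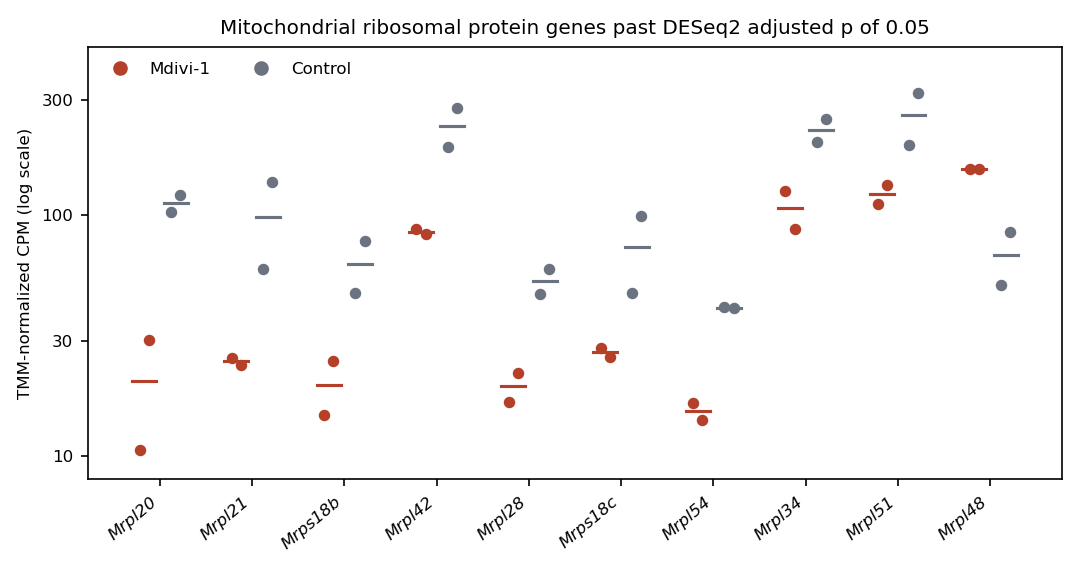
TMM-normalized CPM (log scale, vertical axis) of the 10 genes past an adjusted p of 0.05 in DESeq2, each point a library and each line the mean of 2, with Mdivi-1 in red and control in grey. The groups are apart in all 10, with Mdivi-1 lower in 9 and higher in *Mrpl48*.

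The small subunit was more mixed. Of its 25 genes tested, 15 had a negative value and 10 a positive one, and the median was -0.37, with 4 lower and 1 higher at an unadjusted p under 0.05. The difference between the subunits was not tested. The 15 small-subunit genes with a bacterial counterpart had a median of -0.61, with 12 negative. The 9 known only from mitochondria had a median of 0.14, with 2 negative and 7 positive, and 0 passed an unadjusted p of 0.05. Of the positive ones, *Mrps27*, *Mrps31*, *Mrps34* and *Mrps35* averaged under 10 CPM over the libraries. The fold changes of the others, *Mrps23*, *Mrps25* and *Mrps33*, were within their errors. In the large subunit the medians of the 27 genes with a bacterial counterpart and the 20 mitochondria-specific ones were alike, at -0.75 and -0.70.

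The 3 genes named after ribosomal protein S18 differed. *Mrps18b*, a small-subunit gene on chromosome 17, had 14.8 and 24.8 CPM in the Mdivi-1 libraries and 47.4 and 78.0 CPM in the controls, a log2 fold change of -1.66 ± 0.43 (DESeq2 adjusted p = 0.0153). *Mrps18c*, the closest counterpart of the bacterial protein, had 28.2 and 25.7 CPM in the Mdivi-1 libraries and 47.5 and 99.7 CPM in the controls, a log2 fold change of -1.45 ± 0.42 (DESeq2 adjusted p = 0.0325). Exons of *Mrps18b* share 638 bp with *Gm16279* on the other strand, and those of *Mrps18c* 250 bp with *Gm43511* on the same strand. The part of these overlaps in the values was not tested. *Mrps18a*, whose protein sits in the large subunit, was near the floor, with 1.07 and 2.29 CPM in the Mdivi-1 libraries and 0.865 and 0.0656 CPM in the controls. Its log2 fold change of 1.83 ± 1.86 was thus within its error.

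*Mrps12*, which takes part in decoding, had 8.86 and 3.49 CPM in the Mdivi-1 libraries and 16.5 and 11.8 CPM in the controls (log2 fold change -1.20 ± 0.66). *Mrps7*, of the small-subunit head, had 26.8 and 33.9 CPM in the Mdivi-1 libraries and 44.4 and 34.1 CPM in the controls (log2 fold change -0.37 ± 0.36). Neither passed an unadjusted p of 0.05 in edgeR's test. *Mrps6* and *Mrps28* were the other small-subunit genes past it on the lower side, at log2 fold changes of -0.97 and -0.80, and were named after their values were seen. *Mrps21* was the one past it on the higher side, with 48.4 and 51.4 CPM in the Mdivi-1 libraries and 18 and 33.7 CPM in the controls (log2 fold change 0.95 ± 0.41, unadjusted p = 0.0481, adjusted p = 0.308).

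*Mrps27*, a pentatricopeptide repeat protein, had 21.2 and 4.01 CPM in the Mdivi-1 libraries and 5.60 and 1.90 CPM in the controls, so that the groups overlapped. *Mrps35*, another mitochondria-specific gene of the small subunit, had 3.81 and 2.24 CPM in the Mdivi-1 libraries and 0.455 and 0.722 CPM in the controls. Their log2 fold changes of 1.74 ± 0.95 and 2.35 ± 1.44 did not pass the test. *Mrps33* and *Mrps30*, whose protein sits in the large subunit in spite of its name, had log2 fold changes of 0.02 ± 0.36 and 0.29 ± 0.32, within their errors, and groups that overlapped. *Mrps36*, of the oxoglutarate dehydrogenase complex, had 35.9 and 31.2 CPM in the Mdivi-1 libraries and 42.8 and 73.3 CPM in the controls (log2 fold change -0.79 ± 0.38, edgeR adjusted p = 0.359).

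The shift was found in genes measured well. The 60 genes with a mean of at least 10 CPM had a median log2 fold change of -0.72, where the 7096 genes of the table at that level had -0.08, whereas the 15 tested genes under 10 CPM had a median of 0.14. The 31 genes whose exons overlap another gene had a median of -0.57, and the 44 without such an overlap -0.68. By exonic length, the 25 shortest genes (607 to 1664 bp) had a median of -0.80 with 10 genes lower at an unadjusted p under 0.05, the 25 of middle length -0.11 with 4 and the 25 longest -0.61 with 3. Protein-coding genes of the same lengths had medians of -0.16, -0.08 and 0.07. Across the 75 genes, which are not independent of each other, log2 fold change and log2 length had a Pearson's r of 0.18 and a Spearman's rho of 0.21.

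The promoter features were set beside the same values. The 26 genes with an ETS core had a median log2 fold change of -0.81, and the 41 tested genes with a window but no core -0.49. Among all protein-coding genes tested the medians were -0.22 with the core and 0.07 without. For the NRF1 core the medians of the mitochondrial ribosomal protein genes were -0.59 with and -0.65 without, and for the YY1 core -0.37 and -0.65. *Mrpl20*, with the smallest p, held none of the 3 cores. *Mrps21*, which was higher at an unadjusted p under 0.05 in edgeR's test, held an NRF1 core before and an ETS core after its start.

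The 26 divergent neighbours that were tested and are no mitochondrial ribosomal protein genes had a median log2 fold change of -0.15, with 14 negative. Of these, 3 were lower at an unadjusted p under 0.05 and 0 higher, where 7.64% and 8.27% of all genes tested were. The difference between the neighbours and the ribosomal protein genes was not tested. They were *Twnk* (the mitochondrial DNA helicase) beside *Mrpl43*, *Fau* (a cytosolic ribosomal protein fusion) beside *Mrpl49*, and *Tcp1* (a chaperonin subunit) beside *Mrpl18*. *Twnk* had 9.39 and 15.7 CPM in the Mdivi-1 libraries and 36.4 and 29.2 CPM in the controls, and its exons share 507 bp with those of *Mrpl43*. *Mrps18b* and *Mrps18c*, both lower, faced *Ppp1r10* and *Helq*, whose log2 fold changes were 0.82 ± 0.48 and 0.79 ± 0.37 and did not pass the test.

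Other genes of mitochondrial translation were given by lists, to be read against all genes tested, of which 48.7% had a negative value, 7.64% were lower and 8.27% higher at an unadjusted p under 0.05. The 5 mitoribosome subunits with other names all had negative values, with a median of -0.58 and 1 past an unadjusted p of 0.05. This was *Gadd45gip1*, a large-subunit protein at the tunnel exit, with 83.0 and 66.8 CPM in the Mdivi-1 libraries and 117 and 252 CPM in the controls (log2 fold change -1.30 ± 0.41, DESeq2 adjusted p = 0.0292). The 26 assembly and ribosomal RNA modification genes tested of 28 had a median of -0.20, with 15 negative, 1 lower (*Trmt61b*, an RNA methyltransferase) and 1 higher (*Nsun4*, which methylates the small-subunit RNA) at an unadjusted p under 0.05, both under those shares. *Nsun4* had 134 and 122 CPM in the Mdivi-1 libraries and 79.4 and 75.9 CPM in the controls. *Mettl15*, another methyltransferase of that RNA, had a log2 fold change of -1.48 ± 0.67 and did not pass.

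The 20 translation factors tested had a median of -0.38, with 16 negative, and 2 lower and 1 higher at an unadjusted p under 0.05, near the shares over all genes. *Slirp*, which stabilizes mitochondrial mRNAs, had 19.5 and 21.1 CPM in the Mdivi-1 libraries and 34.2 and 46.0 CPM in the controls. *Tufm*, the elongation factor Tu, had 0 reads in both Mdivi-1 libraries and 46 and 11 reads in the controls, at the low end of what these libraries measured. *Mtrfr*, a rescue factor, had 9.13 and 5.58 CPM in the Mdivi-1 libraries and 1.41 and 0.131 CPM in the controls. Of 18 aminoacyl-tRNA synthetases and amidotransferase subunits tested, 11 had a negative value, with 3 lower and 2 higher at an unadjusted p under 0.05. The list thus went both ways, as *Mars2* had 15.6 and 13.3 CPM in the Mdivi-1 libraries and 34.9 and 51.8 CPM in the controls, whereas *Lars2* had 201 and 145 CPM in the Mdivi-1 libraries and 84.4 and 80.4 CPM in the controls.

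The 11 genes for transcription and replication of mitochondrial DNA, the source of the ribosomal RNAs, had a median of -0.84, with 9 negative and 6 lower at an unadjusted p under 0.05. *Polrmt*, the mitochondrial RNA polymerase, had 2.52 and 3.44 CPM in the Mdivi-1 libraries and 14.1 CPM in both controls (log2 fold change -2.24 ± 0.63, DESeq2 adjusted p = 0.0478). *Mterf1b*, a termination factor gene with a close paralog, had 6 and 0 reads in the Mdivi-1 libraries and 165 and 163 reads in the controls. *Tfam*, which packs mitochondrial DNA, had a log2 fold change of -0.84 ± 0.61 and did not pass. The 13 protein-coding genes of the mitochondrial genome, which mitochondrial ribosomes translate, overlapped between the groups in every case, as did 7124 of all 14259 genes tested. Of the 13, 0 were past an unadjusted p of 0.05 and 0 were called by DESeq2 (background 2.75% lower and 3.23% higher). They summed to 151900 and 137400 CPM in the Mdivi-1 libraries and 138400 and 225200 CPM in the controls.

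Cytosolic ribosomal protein genes, the counterpart in the cytosol, were lower more uniformly. The log2 fold change was negative for all 79 (background 48.7%), at a median of -0.98 and quartiles of -1.16 and -0.83. In edgeR's test 58 were lower at an unadjusted p under 0.05 (background 7.64%), and DESeq2 called 27 lower (background 2.75%). They summed to 22720 and 20240 CPM in the Mdivi-1 libraries and 29570 and 53830 CPM in the controls, a ratio of the means of 0.515. The mitochondrial ribosomal protein genes, with quartiles of -0.99 and 0.04, were more dispersed around a smaller shift. Both sets share the libraries, and control replicate 2 had the highest sum in each. The difference between the sets was not tested.

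**Figure D5:**
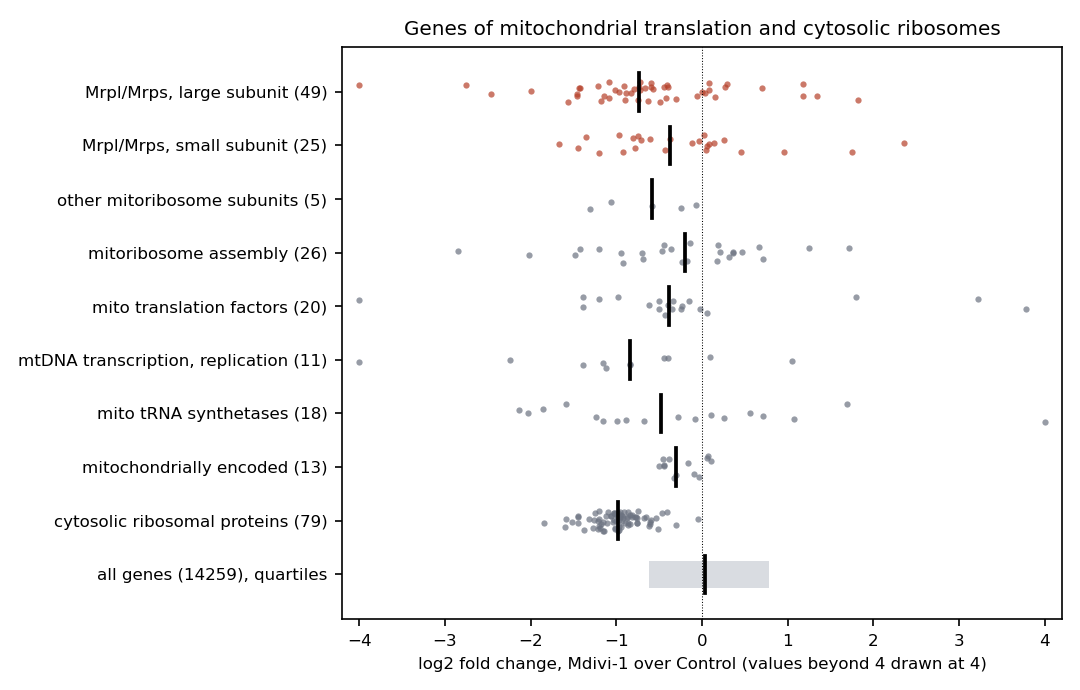
Log2 fold change of Mdivi-1 over control (horizontal axis) of each gene tested in lists of mitochondrial translation and cytosolic ribosomes, mitochondrial ribosomal protein genes in red, with the median as a black line and the quartiles of all genes tested as a grey bar; genes near 0 counts in a group are drawn at up to 4. Medians were -0.73 and -0.37 for the large and small subunit and -0.98 for the cytosolic ribosomal proteins.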

How the data were processed

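RNA of late 2C embryos was analysed in 2 Mdivi-1 and 2 control libraries, grouped by their titles. The authors trimmed reads with cutadapt 1.16, mapped them with STAR to mm10 and counted uniquely mapped reads in exons of GENCODE, and the deposited table holds these raw counts of 26022 genes. It also holds, per the file headers, a signal (each count over its library's size factor) and the log2 fold changes, standard errors, Wald score and p-values of the authors' DESeq2 comparison, none of which were used. Of its genes, 32 have no symbol.

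In R 4.3.3 with edgeR 4.0.16, the filter filterByExpr (minimum count 10) left 14259 genes, which were scaled by TMM and tested two-sided with the quasi-likelihood test. P-values were adjusted by Benjamini-Hochberg over these genes. Standard errors were worked back from this test. DESeq2 1.42.0 was run on the same genes as a second rule for calls, and an adjusted p it gave as missing stayed out of its counts. The TMM factors were 1.05 and 1.04 in the Mdivi-1 libraries and 1.10 and 0.834 in the controls, the 13 mitochondrially encoded protein genes took 16.0% and 14.2% of the counts in the Mdivi-1 libraries and 15.1% and 18.8% in the controls, and the biological coefficient of variation was 0.66. The chi-square per degree of freedom between the libraries of a group was 52.9 for Mdivi-1 and 115 for the controls, far above counting error. Exonic lengths (union of exons), exon overlaps and gene positions are from GENCODE M21 on GRCm38, in which 25995 genes were found by Ensembl ID. The study's methods name a different GENCODE release for the mapping, so lengths and overlaps may differ from those behind the counts. Levels are compared between genes only as CPM per kb. Promoter windows are from RefSeq (GRCm38.p6).

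The genes and gene lists were chosen with earlier results of these data known. Genes named were those called by DESeq2, up to 10 lower and 6 higher with the smallest p, the 5 with the highest CPM per kb, those not tested, the S18 paralogs and genes with a known role, and up to 3 of each other list. The alternatives were DESeq2's size factors or library totals as scaling, no filter or at least 1 CPM in 2 libraries, limma-voom (limma 3.58.1), the edgeR likelihood ratio test, DESeq2, the replicate number as a block, and each library left out in turn. The code was tested on simulated data.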

Additional observations from a re-analysis of the deposited data

How the results depend on the processing

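There were 2 libraries a group, and where a library was left out the lone library was assumed to vary like those of the other group. The median log2 fold change of the 75 genes (-0.63) kept its direction under every alternative run, from -0.70 to -0.47. The summed level (log2 ratio -0.53) was recomputed with library totals, with DESeq2's size factors and as a share of the counts outside the mitochondrial genome. It was also recomputed without genes that have a named pseudogene. These ratios ran from -0.58 to -0.38, and the sum was not recomputed with a library left out. The 17 lower genes at an unadjusted p under 0.05 became 11 to 21 with a library left out. The 2 higher genes became 1 with size factors, 4 without a filter, 1 with the 1 CPM filter, 1 with DESeq2 and 1 to 4 with a library left out. At adjusted p under 0.05, where the quasi-likelihood test called 0, the lower and higher counts over all genes were 364 and 455 without a filter, 77 and 125 with limma-voom, 358 and 512 with the likelihood ratio test, 392 and 461 with DESeq2, and 0 to 392 and 0 to 411 with a library left out. For the mitochondrial ribosomal protein genes they were 9 and 2 without a filter, 2 and 0 with limma-voom, 8 and 1 with the likelihood ratio test, 9 and 1 with DESeq2, and 0 to 9 and 0 to 1 with a library left out. DESeq2's 9 lower genes became 4 with library totals and 0 to 11 with a library left out, and its 1 higher gene 0 to 1. The causes were not tested. With the replicate block, 15 genes were lower and 2 higher, with a median of -0.65. The deviations of same-numbered libraries had a correlation of 0.008. Whether the numbers pair the libraries remains unknown, as the sources do not give the litters and this value rests on 2 libraries a group. Of 622 values of the 52 genes named, 8 changed sign, in 5 genes. The log2 fold change of *Mrpl9* ran from -0.56 to 1.92 with a library left out, *Mrps30* from -0.0046 to 0.50, *mt-Atp8* from -0.91 to 0.042, *mt-Atp6* from -0.85 to 0.045 and *Mrps33* from -0.42 to 0.34. For *Mrps33* it was -0.0041 with limma-voom and -0.0093 with the replicate block. Another 82 values passed the adjusted threshold under an alternative.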

Other observations

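Genes known as regulators of mitochondrial biogenesis were listed beside the ribosomal proteins. Of 12, 10 were tested, 9 had a negative log2 fold change (background 48.7%) and the median was -0.59. In edgeR's test 1 was lower at an unadjusted p under 0.05 (background 7.64%). DESeq2 called 0 (background 2.75% lower and 3.23% higher). *Nrf1*, whose product binds the NRF1 core, had 29.6 and 27.4 CPM in the Mdivi-1 libraries and 68.1 and 52.9 CPM in the controls, with the groups apart (log2 fold change -1.08 ± 0.34, edgeR adjusted p = 0.213, DESeq2 adjusted p = 0.0926). *Gabpa*, the DNA-binding subunit of GABP, had 478 and 626 CPM in the Mdivi-1 libraries and 734 and 1020 CPM in the controls (log2 fold change -0.67 ± 0.33, edgeR adjusted p = 0.376). *Yy1* overlapped between the groups, at a log2 fold change of -0.17 ± 0.32. *Ppargc1a*, a coactivator known from tissues with high respiration, had no read in any library. A relation between these levels and those of the ribosomal protein genes was not tested, as there are only 4 libraries.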
